A study of Monodelphis domestica with 2 samples.

Results

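IT_A_2 is 1 of the 5 types into which the study divided the IT_A subclass of intratelencephalic (IT) neurons, in primary visual cortex (V1) taken from gray short-tailed opossums (Monodelphis domestica). Its members were the nuclei whose deposited labels gave IT_A_2 as the type and IT_A as the subclass. They numbered 2079 of the 32764 labelled nuclei of the series and of the 9864 nuclei of IT_A. The tissue came from 2 adult male opossums without any treatment, animal 1 at 1.5 years and animal 2 at 2 years, with the V1 of both hemispheres pooled per animal. Frozen tissue was turned into nuclear suspensions by a different experimenter for each animal, nuclei positive for the DNA dye Draq5 were sorted, and each suspension was split into 2 droplet-based libraries, called 1A, 1B, 2A and 2B here. The libraries of an animal share their suspension and counted as 1 replicate, so n is 2 animals throughout, and animal, age and experimenter cannot be told apart.

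Intratelencephalic neurons are glutamatergic cells of the cortex whose axons stay within the telencephalon, reaching other cortical areas, the opposite hemisphere and the striatum. They occur in most layers of the neocortex, and in rodents their types form a graded series from the surface to the depth of the cortex. CUX2, a homeobox transcription factor, is a classical marker of upper-layer IT neurons, RORB marks the granular layer, and the deep-layer types express other sets of genes.

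The levels below are CPM, unique molecular identifiers (UMIs) summed over the nuclei of a type within an animal and scaled to 1000000 UMIs. A gene is called different where edgeR's quasi-likelihood test gave a Benjamini-Hochberg adjusted p under 0.05 over all genes tested. Fold changes are log2 values with their standard error (SE). The type labels came from clusters of the same counts, so these p-values set the difference between types against the spread between the animals and are no independent test that the types exist. The same animals gave every type, and a fit with the animal as a block called more genes.

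The 4 libraries held between 55625042 and 69706055 UMIs, of which IT_A_2 nuclei held between 4181685 and 5866549. Any pair of libraries shared between 16 and 30 barcodes, and 0 of these were IT_A_2 in both. Nuclei of IT_A_2 were deep: the median was 9027 UMIs in library 1A and 8959 in library 1B of animal 1, and 10166 in library 2A and 8588.5 in library 2B of animal 2. By animal it was 8987.5 and 9270, a mean of 9129 ± 200 (SD, n = 2), with a median of 3375 ± 3.18 genes per nucleus. The share of IT_A_2 nuclei under 3000 UMIs was 0.332% in animal 1 and 1.26% in animal 2. IT_A_1 stood apart in depth in animal 1, with a median of 4049 UMIs where the other IT_A types had 7281 to 9420. In animal 2 its median of 8384 lay within the range of the others, 8094 to 10859.5. Of its nuclei in animal 1, 28.8% lay under 3000 UMIs.

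Markers of glutamatergic neurons were high in IT_A_2, with a summed level over 6 genes of 1550 CPM in animal 1 and 1556 CPM in animal 2, beside 1705 and 1639 CPM in the nuclei labelled L5PT and L6CT. Markers of other glutamatergic subclasses summed to 263 and 322 CPM over 10 genes, against 2728 and 2724 CPM in the nuclei labelled L5PT, L6CT, L5NP and L6b and 151 to 603 CPM in the other IT_A types. NTSR1, a neurotensin receptor of layer 6 neurons in mouse, did not tell these apart, at 85.2 and 126 CPM in IT_A_2 and 116 and 110 CPM in those nuclei. Of 8 tested members FOXP2 and FEZF2 were higher and BCL11B lower than the mean of the other IT_A types. FEZF2 stood at 3.28 and 4.46 CPM (1.13 ± 0.28, edgeR adjusted p = 0.032), and its call was lost in DESeq2, with equal nuclei, against the pooled sum of the other types and without the IT_A_2 sum of either animal. Marker sums of non-glutamatergic cells were low. The 8 GABAergic markers reached 38.2 and 41.6 CPM, against 1767 and 1764 CPM in the GABAergic subclasses. The 5 oligodendrocyte markers reached 120 and 134 CPM, against 15605 and 15951 CPM in oligodendrocytes, and the 6 astrocyte markers 187 and 205 CPM, against 20103 and 19126 CPM in astrocytes. Markers of oligodendrocyte precursors stood at 1.47 and 2.40 CPM and those of microglia at 3.02 and 3.09 CPM. Endothelial markers summed to 19.9 and 39.6 CPM, nearly all from FLT1. C1QA and CLDN5 had 0 UMIs in animal 1 and CDH5 had 0 in animal 2. The oligodendrocyte sum was higher in IT_A_2 than in any other IT_A type, which ranged from 76.8 to 109 CPM, and 1 of its 5 members passed the test: MBP, a myelin protein gene, at 97.0 and 113 CPM against 58.7 to 74.5 CPM elsewhere in IT_A (log2 fold change 0.59 ± 0.13, edgeR adjusted p = 0.016), a call lost against the pooled sum of the other types and without the IT_A_2 sum of either animal. The astrocyte sum was also highest in IT_A_2 within each animal. In the other types it ranged from 99.6 to 160 CPM in animal 1 and from 126 to 194 CPM in animal 2. Of its 6 members 2 passed: SLC1A2, a glutamate transporter gene (0.54 ± 0.14, edgeR adjusted p = 0.042), and ALDH1L1 (0.94 ± 0.25, adjusted p = 0.045). Both calls were lost without the nuclei called doublets, against the pooled sum of the other types and without the IT_A_2 sum of either animal. The part of these transcripts in the results below was not tested.

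CUX2, the marker given for the type, was present in IT_A_2 but did not set it apart within IT_A. Its level was 284 CPM in animal 1 and 337 CPM in animal 2. It was 528 and 576 CPM in IT_A_1, 438 and 561 in IT_A_4, 341 and 447 in IT_A_3, and 233 and 280 in IT_A_5. IT_A_2 thus lay between IT_A_3 and IT_A_5, and its sums overlapped those of none of the other types. Against the mean of the other 4 types the log2 difference was -0.44 ± 0.16, with an edgeR adjusted p of 0.155. With the animal as a block the adjusted p was 0.000424, and over all settings tried it ran from 0.000424 to 0.626. Thinned to 1000 UMIs, 23.3% and 24.0% of IT_A_2 nuclei had a CUX2 UMI, against 1.84% and 3.62% of oligodendrocytes, a cell that should lack it. Without thinning these shares were 72.3% and 67.4% in IT_A_2, at the median depths above, and 3.64% and 6.51% in oligodendrocytes, at medians of 1924 and 1909 UMIs.

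The share of IT_A_2 among IT_A nuclei was larger in animal 1. It was 27.1% in library 1A (597 of 2199 nuclei, exact 95% interval 25.3 to 29.1), 28.9% in 1B (607 of 2102, 26.9 to 30.9), 16.5% in 2A (377 of 2289, 14.97 to 18.1) and 15.2% in 2B (498 of 3274, 14.0 to 16.5). The libraries of an animal differed little, with Fisher's exact test adjusted over 10 comparisons at p = 0.434 in either animal, while the intervals of the animals did not overlap. By animal the share was 28.0% (1204 of 4301) and 15.7% (875 of 5563), a mean of 21.9% ± 8.67 (SD, n = 2). Of all glutamatergic nuclei IT_A_2 made up 13.3% and 7.91%.

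The share moved against that of IT_A_1, which supplied 981 IT_A nuclei in animal 1 and 2465 in animal 2. With IT_A_1 left out of the denominator, a choice made after the shares were seen, IT_A_2 made up 36.3% in animal 1 and 28.2% in animal 2. Over nuclei with at least 3000 UMIs it made up 30.2% and 16.1%. With 2 animals no test between them is possible, and the intervals cover counting error only.

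**Figure D1:**
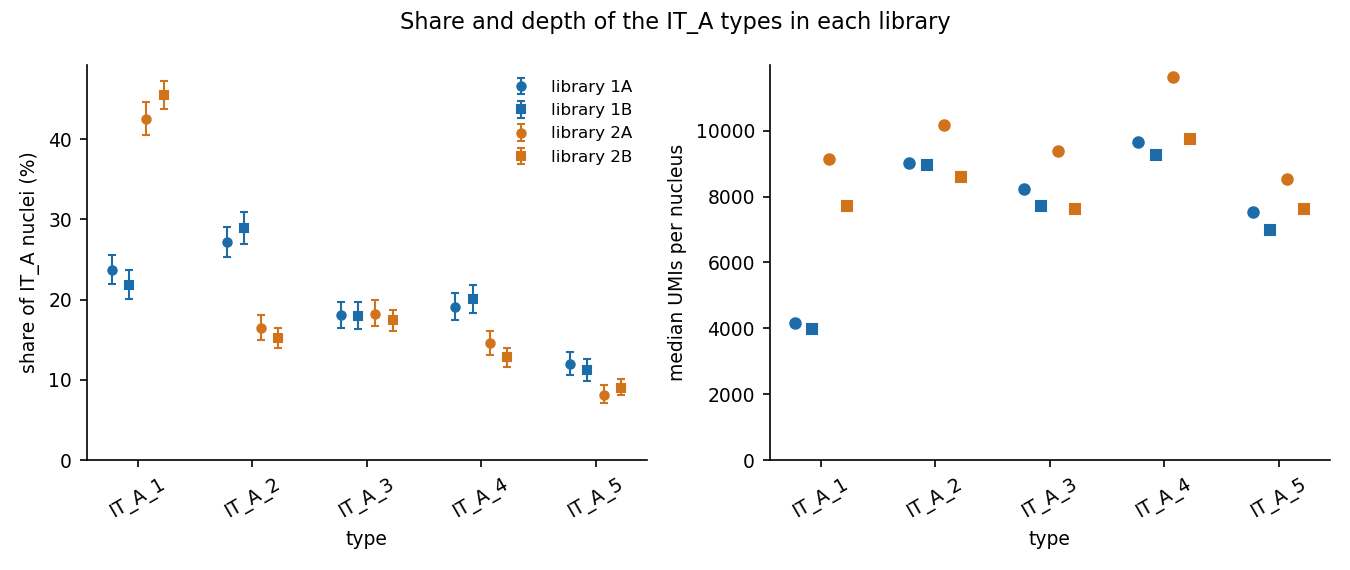
Left, share of each IT_A type among IT_A nuclei (%) in the 4 libraries, with exact 95% intervals; right, median UMIs per nucleus. IT_A_2 took 27.1% and 28.9% in the libraries of animal 1 against 16.5% and 15.2% in those of animal 2, at medians between 8588.5 and 10166 UMIs, while IT_A_1 was shallow in animal 1.

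Across the 3000 most variable genes the mean log-normalised profile of IT_A_2 was nearest to that of IT_A_3, with a Spearman correlation of 0.926 in animal 1 and 0.929 in animal 2. IT_A_1 followed at 0.908 ± 0.0223 (SD, n = 2), with 0.892 in animal 1, where its nuclei were shallow, and 0.924 in animal 2. With nuclei thinned to 3000 UMIs IT_A_3 stayed the nearest at 0.930, but IT_A_1 fell to 0.893 ± 0.0190, below the 0.898 of IT_A_4, IT_A_5 and IT_C by less than the spread between the animals. IT_C, another IT subclass, stood as near as the remaining IT_A types: 0.892 ± 0.0106 for IT_C, 0.889 ± 0.00586 for IT_A_5, 0.888 ± 0.0109 for IT_A_4 and 0.883 ± 0.0160 for IT_B. The order of these 4 did not exceed the spread between the animals. Within each animal IT_C was the highest of them, at 0.900 and 0.885, with IT_A_5 at 0.893 and 0.884. IT_D was the most distant at 0.800 ± 0.0266. These correlations run across genes of the same libraries and are descriptions.

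Of the IT_A types IT_A_2 had the highest mean correlation with IT_C, while that of the others was 0.856 ± 0.0324 for IT_A_1, 0.832 ± 0.00515 for IT_A_4, 0.812 ± 0.000597 for IT_A_3 and 0.776 ± 0.0132 for IT_A_5. With all nuclei IT_A_2 was the nearest in each animal, at 0.900 in animal 1 and 0.885 in animal 2, where IT_A_1 came to 0.834 and 0.879. With nuclei thinned to 3000 UMIs the order of the pair turned in animal 2: IT_A_2 stood at 0.910 and 0.887 and IT_A_1 at 0.838 and 0.898. For IT_B the order was less firm. IT_A_2 stood at 0.895 and 0.872, above IT_A_1 at 0.835 in animal 1 but below it at 0.887 in animal 2, and thinning left IT_A_2 at 0.901 and 0.877, IT_A_1 at 0.838 and 0.895 and IT_A_4 at 0.889 and 0.887.

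**Figure D2:**
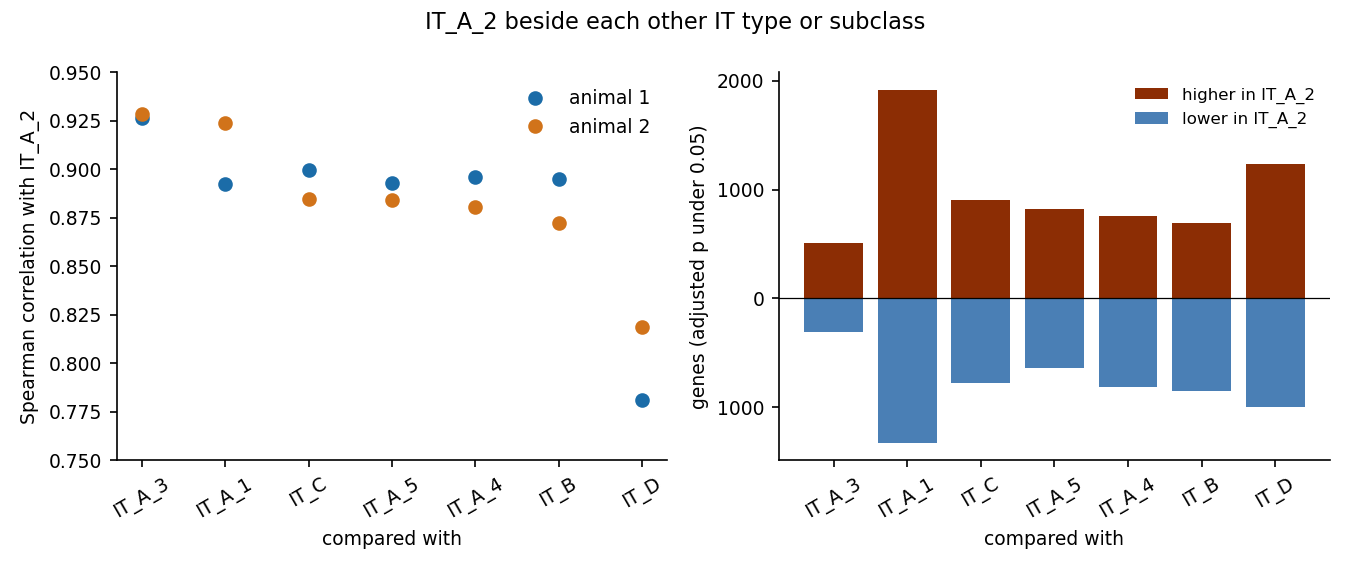
Left, Spearman correlation between the IT_A_2 profile and each other IT type or subclass, 1 point per animal, on an axis that starts at 0.75; right, genes with an edgeR adjusted p under 0.05, higher (up) or lower (down) in IT_A_2. IT_A_3 had the highest correlation and the fewest genes, 510 higher and 308 lower.

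The labels carried over between the animals for most nuclei. They had been made on both animals together, so these shares are descriptions and no independent test of the type. With the nuclei of the other animal as the reference, 976 of the 1204 IT_A_2 nuclei of animal 1 (81.1%, exact 95% interval 78.7 to 83.2) and 741 of the 875 of animal 2 (84.7%, 82.1 to 87.0) were again given IT_A_2. The other types returned 86.1% and 76.1% for IT_A_1, 88.4% and 84.1% for IT_A_3, 87.4% and 91.1% for IT_A_4, and 98.0% and 95.03% for IT_A_5. The IT_A_2 nuclei that were given another label went mainly to IT_A_3 in animal 1, 111 nuclei or 9.2%, and were spread over IT_A_5 (29), IT_A_1 (28), IT_A_3 (26) and IT_C_2 (22) in animal 2. Traffic in the other direction was uneven. Of the nuclei called IT_A_2 in animal 2, 188 of 1014 (18.5%) carried the label IT_A_1, and in animal 1 the number was 8 of 1054 (0.759%).

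Against the mean of the other 4 IT_A types, 1267 of 17001 genes tested (7.45%) differed, 820 higher (4.82%) and 447 lower (2.63%) in IT_A_2. All 1267 had the same direction in both animals, which the test favours because it sets the difference against the spread between them. The match is therefore no separate support. With the animal as a block 2920 genes differed. Genes that were highest in IT_A_2 of the 5 types in both animals, with an adjusted p under 0.05 against each, numbered 103 (0.606%), and genes that were lowest numbered 76 (0.447%). Against single types the counts were 818 for IT_A_3 (4.81%), 1463 for IT_A_5 (8.61%), 1568 for IT_A_4 (9.22%) and 3242 for IT_A_1 (19.1%), and with the block 2074, 2733, 3129 and 5617. Higher in IT_A_2 were 510 genes against IT_A_3 (3%), 820 against IT_A_5 (4.82%), 757 against IT_A_4 (4.45%) and 1917 against IT_A_1 (11.3%), and lower were 308 (1.81%), 643 (3.78%), 811 (4.77%) and 1325 (7.79%). The count against IT_A_1 fell to 2038 with equal nuclei per type. The other 4 types were weighted equally. Against their pooled sum, in which types with more UMIs weigh more, 353 genes differed, 165 higher and 188 lower. Of these 329 were among the 1267, and 6 of the 1267 had the opposite sign. That fit also held fewer sums, so the weighting and the size of the fit changed together and cannot be told apart. Of the 172 genes called against the mean that the naming rule took in, 102 lost their call against the pooled sum. Leaving out the IT_A_2 sum of animal 1 left 526 genes and leaving out that of animal 2 left 499.

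The 12 largest differences upward were drawn from 237 genes that met the naming rule. ATP10A, a phospholipid-transporting ATPase, led them at 240 CPM in animal 1 and 322 CPM in animal 2, where the other IT_A types ranged from 11.5 to 79.7 CPM (log2 fold change 3.02 ± 0.24, edgeR adjusted p = 5.4e-05). COL5A2, a chain of a fibrillar collagen, was at 50.7 and 56.4 CPM against 4.08 to 17.2 CPM (2.82 ± 0.13, adjusted p = 4.5e-06). RXRG, the gamma retinoid X receptor, was at 79.5 and 101 CPM against 4.53 to 33.6 CPM (2.82 ± 0.16, adjusted p = 8.6e-06). In each of the 3 genes both IT_A_2 sums lay above all 8 sums of the other types, which held for 893 of the 17001 genes tested (5.25%).

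DCC, a netrin receptor of growing axons, stood at 230 and 156 CPM against 17.1 to 64.8 CPM (2.41 ± 0.15, adjusted p = 1.9e-05). GABRA5, the alpha5 subunit of the GABA-A receptor, stood at 153 and 182 CPM against 13.4 to 68.1 CPM (2.39 ± 0.13, adjusted p = 8.1e-06). GRM3, a metabotropic glutamate receptor of group II, stood at 611 and 730 CPM against 90.4 to 488 CPM (1.96 ± 0.23, adjusted p = 0.00055). RORB, the nuclear receptor of granular-layer neurons, was also higher, at 178 and 203 CPM. In RORB the other types split: IT_A_1 and IT_A_4 lay between 76.1 and 148 CPM, and IT_A_3 and IT_A_5 between 15.02 and 31.8 CPM.

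The remaining genes of the 12 were TEX47 (2.94 ± 0.28), MDFIC2 (2.88 ± 0.32), KANK1, a regulator of the actin cytoskeleton (2.58 ± 0.25), PAMR1 (2.26 ± 0.20) and GASK1B (2.18 ± 0.26), with levels in IT_A_2 between 21.0 and 73.4 CPM. For KANK1 the sums nearly met, with 43.8 CPM in IT_A_2 of animal 1 and 42.4 CPM in IT_A_1 of animal 2. KANK1 was more frequent in oligodendrocytes: thinned to 1000 UMIs, 14.0% and 11.7% of them had a KANK1 UMI, against 4.24% and 5.49% of IT_A_2 nuclei, and the oligodendrocyte marker sum was higher in IT_A_2 than in the other IT_A types. Their part in its difference was not tested. The calls of MDFIC2, KANK1, PAMR1, GASK1B, GRM3 and RORB were lost against the pooled sum of the other types. The genes with the widest smallest gap to any other IT_A type were ATP10A, RXRG, COL5A2, DCC, GABRA5 and GASK1B.

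The 12 largest differences downward were drawn from 217 genes that met the naming rule. GLIS3, a zinc finger transcription factor, was at 8.63 and 11.7 CPM against 34.2 to 257 CPM (-3.44 ± 0.57, edgeR adjusted p = 0.0039), and lost its call without the IT_A_2 sum of animal 1. RSPO3, a secreted enhancer of Wnt signalling, was at 2.16 and 3.43 CPM against 8.65 to 39.1 CPM (-3.08 ± 0.22, adjusted p = 2.6e-05). ITGAV, the alpha-V integrin, was at 2.42 and 3.77 CPM against 15.5 to 37.7 CPM (-2.96 ± 0.24, adjusted p = 5.4e-05). All sums of IT_A_2 lay below those of the other types in these genes, as in 509 of the genes tested (2.99%).

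PDGFD, a platelet-derived growth factor, stood at 5.09 and 6.63 CPM against 18.7 to 87.5 CPM (-2.86 ± 0.44, adjusted p = 0.0025). SGK3, a serine/threonine kinase, stood at 29.2 and 33.9 CPM against 75.3 to 425 CPM (-2.31 ± 0.19, adjusted p = 5.9e-05). DLK1, a membrane protein related to Notch ligands, stood at 7.34 and 5.83 CPM against 17.5 to 29.96 CPM (-1.97 ± 0.17, adjusted p = 6.1e-05). The last had an even level in the other types, whereas SGK3 reached its highest level in IT_A_5.

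The others were OTOF, which encodes the vesicle protein otoferlin (-2.92 ± 0.56), SH3RF3 (-2.91 ± 0.39), MCMDC2 (-2.71 ± 0.19), ARHGEF28, a guanine nucleotide exchange factor (-2.34 ± 0.26), the polarity gene PARD3B (-2.10 ± 0.20) and LAPTM4B (-1.98 ± 0.21). OTOF was at 4.23 and 5.94 CPM in IT_A_2 and at 6.76 and 19.0 CPM in IT_A_4, and its call was lost without either IT_A_2 sum. Within IT_A, PARD3B and LAPTM4B were high in IT_A_4 and IT_A_5 alone, PARD3B at 53.3 to 96.8 CPM there, beside 6.56 and 7.08 CPM in IT_A_2 and 9.07 to 18.1 CPM in IT_A_1 and IT_A_3. Genes at 20 CPM or more in every other type but lowest in IT_A_2 included RGS6, a regulator of G-protein signalling, at 31.8 and 20.3 CPM against 68.2 to 174 CPM (-1.92 ± 0.16). GSG1L, an auxiliary subunit of AMPA receptors, was at 42.8 and 32.4 CPM against 101 to 172 CPM (-1.84 ± 0.15). SVEP1, a matrix protein gene, was at 89.8 and 124 CPM against 247 to 491 CPM (-1.55 ± 0.15).

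**Figure D3:**
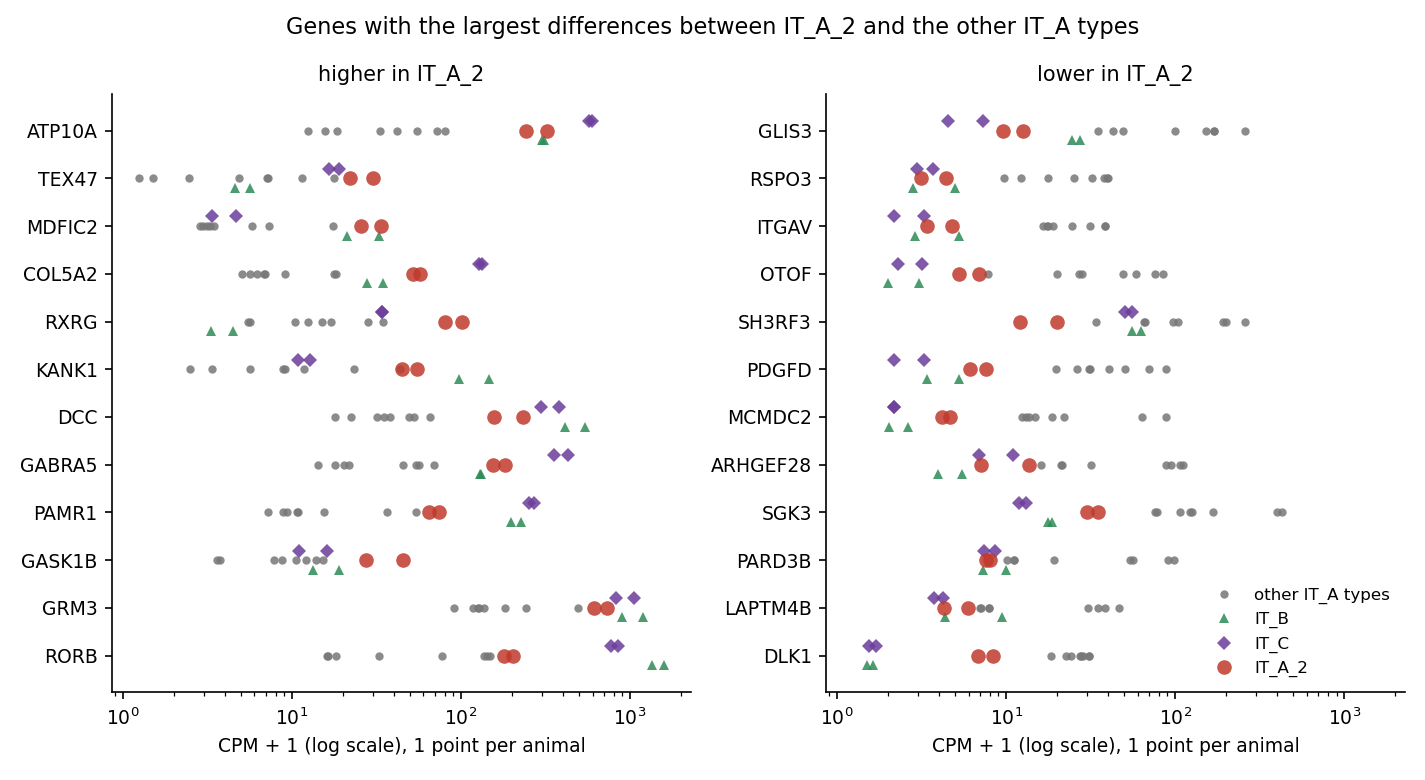
CPM + 1 on a log axis for the 12 genes with the largest differences in each direction, 1 point per animal: IT_A_2 (red), the other IT_A types (gray), IT_B (triangles) and IT_C (diamonds). ATP10A lies far to the right in IT_C, at 571 and 592 CPM, and RXRG to the left of IT_A_2 in IT_B, at 3.51 and 2.31 CPM.

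1 gene without a symbol went beyond all of these. ENSMODG00000035872, chosen after its values were seen, stood at 216 and 270 CPM in the libraries of animal 1 and at 598 and 656 CPM in those of animal 2, and at 4.90 to 26.2 CPM in the other IT_A types (5.26 ± 0.30, edgeR adjusted p = 8.6e-06). It was at 12.0 and 9.37 CPM in IT_B and at 60.4 and 99.2 CPM in IT_C.

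The share of single nuclei with a UMI of a leading gene moved with depth. Thinned to 1000 UMIs, 17.0% and 22.3% of IT_A_2 nuclei had an ATP10A UMI, against 1.68% and 3.24% in IT_A_3 and 0.746% and 1.98% in oligodendrocytes. RXRG was found in 7.23% and 9.60% of thinned IT_A_2 nuclei and in 2.37% and 0.736% of oligodendrocytes. Without thinning, 53.0% and 63.5% of IT_A_2 nuclei had ATP10A and 33.6% and 44.0% had RXRG, and oligodendrocytes had them in 2.15% and 4.47%, and 5.22% and 1.13% at the lower depth given above.

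Against IT_A_3, the nearest type, the largest differences upward were in COL5A2 (3.58 ± 0.21, edgeR adjusted p = 3.1e-05), MDFIC2 (3.57 ± 0.50), ATP10A (3.45 ± 0.38), DCC (3.32 ± 0.24) and GABRA5 (3.13 ± 0.20). In IT_A_3 these genes were at 4.08 and 4.65, 2.27 and 2.44, 17.5 and 32.1, 21.3 and 17.1, and 16.9 and 20.6 CPM respectively. The largest downward were in RSPO3 (-3.80 ± 0.24, adjusted p = 3.3e-05), OTOF (-3.75 ± 0.63), GLIS3 (-3.45 ± 0.62), PDGFD (-3.14 ± 0.49) and RGS6 (-2.60 ± 0.19). GLIS3 was uneven between the animals in IT_A_3, at 42.0 and 170 CPM, and its call against IT_A_3 was lost without either IT_A_2 sum. OTOF lost its call without the sum of animal 1. With 1 IT_A_2 sum left out, the whole comparison held 434 to 445 genes.

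Gene groups were described by counts. Among tested genes with a symbol 7.38% differed from the mean of the other IT_A types, 4.15% higher and 3.23% lower, and among those at 20 CPM or more on average 9.37% did, 4.68% higher and 4.7% lower. The median log2 difference over all genes was 0.02. Counts of members are set beside these shares and carry no test of their own.

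Receptors for neuromodulators and peptides had more members higher than lower: of 46 tested, 11 were higher and 2 lower. Their median of 0.27 fell to 0.15 against the pooled sum of the other types and to 0.0011 without the IT_A_2 sum of animal 1. Genes of some opioid receptors were among the higher ones. OPRK1, the kappa receptor, was at 24.2 and 17.9 CPM against 0.238 to 19.5 CPM (2.11 ± 0.28, edgeR adjusted p = 0.0011). OPRD1, the delta receptor, was at 16.7 and 13.5 CPM against 1.74 to 10.2 CPM (1.56 ± 0.21, adjusted p = 0.0012). OPRM1, the mu receptor, was at 6.90 and 3.31 CPM against 0.756 to 2.68 CPM (1.72 ± 0.33, edgeR adjusted p = 0.0083). OPRK1 and OPRM1 lost their calls against the pooled sum of the other types.

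Of the monoamine receptors, HTR1B, an inhibitory serotonin receptor, stood at 5.01 and 4.91 CPM against 0.249 to 3.38 CPM (2.14 ± 0.33). ADRA1D, an alpha-1 adrenergic receptor, stood at 24.8 and 29.3 CPM, within the other types' range of 3.58 to 36.3 CPM (1.00 ± 0.17). DRD5, a dopamine receptor of the D1 family, was low everywhere, at 1.21 and 1.83 CPM against at most 0.477 CPM (3.63 ± 0.60), and lost its call without the IT_A_2 sum of animal 2. OXTR, the oxytocin receptor, differed between the animals, at 6.56 and 19.995 CPM in IT_A_2 and 4.84 and 10.97 CPM in IT_A_3 (2.72 ± 0.49). The other receptors that were higher were VIPR1, HRH1, CCKBR and ADRA1B, by 0.62 to 0.88, and those that were lower were HRH2 (-0.58) and HTR2A (-0.77). With the block 16 were higher and 7 lower. Without the IT_A_2 sum of animal 1 the counts were 7 and 1, with OPRM1 among the calls lost, and without that of animal 2 they were 5 and 0, with ADRA1D and OXTR among those lost. Against the pooled sum they were 3 and 0.

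Of 36 tested receptors for glutamate, GABA and glycine and their auxiliary subunits, 4 were higher and 3 lower. Beside GABRA5 and GRM3 the higher ones were GRIK3, a kainate receptor subunit, at 131 and 135 CPM (1.77 ± 0.14, adjusted p = 5.4e-05), and CNIH3, an AMPA receptor auxiliary subunit, at 87.0 and 97.1 CPM (1.22 ± 0.13). Both lay within the ranges of the other IT_A types, which reached 159 and 106 CPM. The lower ones were the AMPA receptor subunits GRIA1 (-0.59) and GRIA4 (-0.46) and the glycine receptor subunit GLRA3 (-0.87). With the block 9 were higher and 7 lower, without an IT_A_2 sum 4 higher and at most 1 lower, and against the pooled sum 3 and 1.

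Axon guidance genes were split, with 5 of 53 tested members higher and 6 lower. SEMA3C, a secreted semaphorin, was at 18.4 and 21.1 CPM against 1.51 to 6.47 CPM (2.71 ± 0.19, adjusted p = 2.2e-05). With DCC and SEMA3C, NTNG1, a netrin relative tied to the membrane, was higher (1.40), as were SLIT2 (0.49) and SLIT1 (0.40). The lower members were NRP2, a semaphorin co-receptor (-2.06), SEMA5B (-1.32 ± 0.16), SLIT3 (-1.29 ± 0.13), RGMA (-1.26), EPHA3, an ephrin receptor (-1.02 ± 0.12), and ROBO1, a Slit receptor (-0.49). SLIT3 stood at 288 and 255 CPM against 351 to 1578 CPM. NRP2 was highest in IT_A_4, at 41.4 and 43.4 CPM, and was at 2.16 and 1.60 CPM in IT_A_2. With the block 9 were higher and 9 lower, without an IT_A_2 sum 3 and 4, and against the pooled sum 3 and 5.

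Of 43 neuropeptides and secreted ligands 8 were higher and 5 lower. ADCYAP1, which encodes the peptide PACAP, was at 26.8 and 19.2 CPM against 2.38 to 11.5 CPM (1.66 ± 0.20, adjusted p = 0.00062). FGF1, a fibroblast growth factor, was at 40.6 and 48.7 CPM against 13.3 to 29.2 CPM (1.21 ± 0.20). GDF10, a ligand of the TGF-beta family, was at 6.04 and 5.37 CPM against 0.498 to 4.21 CPM (1.97 ± 0.30). CBLN1, FGF10, BMP3, LGI2 and CCK were also higher, by 0.60 to 1.93. Lower beside RSPO3 and PDGFD were TGFA (-1.31), the opioid peptide precursor PDYN (-0.79) and WNT9A (-0.74). With the block 13 were higher and 9 lower, against the pooled sum 2 and 4, without the IT_A_2 sum of animal 1 the counts were 5 and 2, and without that of animal 2 they were 2 and 2, with the call of FGF1 lost.

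**Figure D4:**
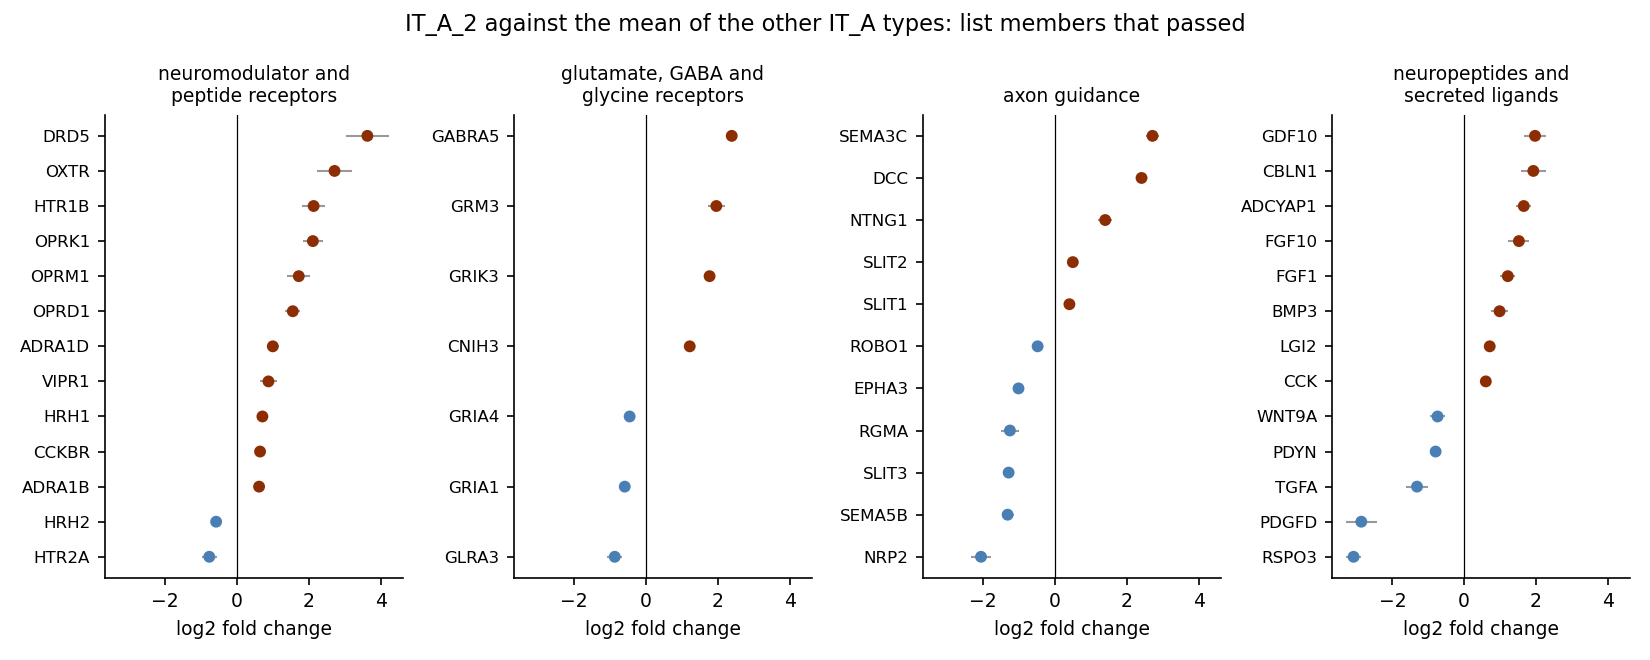
Log2 fold change with its standard error for each member that passed the test in 4 gene lists, IT_A_2 against the mean of the other IT_A types. Neuromodulator and peptide receptors lie mostly to the right of 0 (11 higher, 2 lower), and axon guidance genes on both sides (5 higher, 6 lower).

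Matrix, proteoglycan and heparan sulphate genes had 9 of 59 tested members higher and 5 lower. COL25A1, a transmembrane collagen, was at 659 and 466 CPM against 75.5 to 375 CPM (1.60 ± 0.15, adjusted p = 1.0e-04). CHST9, a carbohydrate sulphotransferase, was at 197 and 164 CPM against 250 to 957 CPM (-1.40 ± 0.14, adjusted p = 0.00018). NDST4, an enzyme of heparan sulphate synthesis, was also lower (-1.95). It was at 784 and 893 CPM in IT_A_4 and between 29.1 and 81.3 CPM in the remaining types, beside 30.3 and 18.5 CPM in IT_A_2. With the block 13 were higher and 9 lower, and without the IT_A_2 sum of animal 1 or 2 the counts were 5 and 5, and 4 and 5. Against the pooled sum the balance turned, with 2 higher and 6 lower.

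Of 27 cadherins and protocadherins 5 were higher and 6 lower. CDH8, a classical cadherin, was at 909 and 715 CPM against 388 to 509 CPM (0.84 ± 0.12). CDH7 was at 18.6 and 26.6 CPM against 47.1 to 140 CPM (-1.73 ± 0.22). CDH9, CDH20, PCDH7, CDH22 and CDH10 were lower and CDH13, PCDH10, PCDH17 and FAT3 higher. With the block 8 were higher and 7 lower, without the IT_A_2 sum of either animal the counts were 3 and 4, and against the pooled sum, where CDH8 lost its call, 1 and 4. Among 65 synaptic adhesion genes 2 were higher and 7 lower, 13.8% of the list. The largest difference was in KIRREL3, an immunoglobulin-family adhesion gene, at 651 and 911 CPM against 1438 to 3407 CPM (-1.67 ± 0.18, edgeR adjusted p = 0.00027). With the block 9 synaptic adhesion genes were higher and 14 lower, and without the IT_A_2 sum of animal 1 or 2 the counts were 1 and 2, and 0 and 1. Against the pooled sum they were 0 and 1.

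Of 74 tested transcription factors of projection neurons 17 were higher and 12 lower. FOXP2, a forkhead factor, was at 86.6 and 84.2 CPM against 24.6 to 50.8 CPM (1.21 ± 0.12, adjusted p = 0.00014). THRB, a thyroid hormone receptor, was at 554 and 553 CPM against 146 to 434 CPM (0.83 ± 0.08). Both were highest in IT_A_2 of all IT_A types, with the sums of the other types below. LDB2, a cofactor of LIM-domain factors, was higher than the mean as well, at 858 and 936 CPM (0.94 ± 0.09, adjusted p = 0.00013), but IT_A_5 lay above it at 1085 and 1073 CPM.

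FOXP1 (0.89), TOX (1.14), NR2F1 (0.92), SATB1 (0.92) and RXRA, of the same receptor family as RXRG (0.66), were also higher. TOX3, a high mobility group factor, was the most firmly lower, at 48.8 and 55.0 CPM against 101 to 317 CPM (-1.84 ± 0.12, adjusted p = 2.1e-05). RFX3, a factor of the regulatory factor X family, was at 132 and 117 CPM against 173 to 388 CPM (-1.03 ± 0.09). BCL11B, a marker of subcerebral projection neurons, was called lower (-0.82), but only IT_A_4, at 439 and 426 CPM, and IT_A_5, at 62.7 and 68.2 CPM, lay above its 35.3 and 52.2 CPM in both animals. Its call was lost without the IT_A_2 sum of animal 1. With the block 25 were higher and 19 lower, against the pooled sum 5 and 6, without the IT_A_2 sum of animal 1 the counts were 11 and 4, and without that of animal 2 they were 10 and 7.

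Of 22 tested layer markers of mouse IT neurons 2 were higher, RORB and ETV1, and 6 lower. The lower ones were OTOF, the calcium buffer CALB1 (34.3 and 22.4 CPM against 45.7 to 75.0 CPM, -1.08 ± 0.16), RASGRF2, a Ras exchange factor (543 and 441 CPM against 663 to 1024 CPM, -0.70), WFS1 (-1.73 ± 0.21), ADAMTS2 (-1.64) and CDH9 (-1.31 ± 0.18). CALB1, OTOF, RASGRF2 and WFS1 are known in mouse from upper-layer IT neurons, and RORB and ETV1 from the granular layer and the layer below it. ETV1 was low, at 6.04 and 7.31 CPM, beside 78.0 and 77.9 CPM in IT_C, and its call was lost in DESeq2, with equal or thinned nuclei, against the pooled sum and without either IT_A_2 sum. ADAMTS2 was high only in IT_A_4 and IT_A_5, and its level in IT_A_2, 12.5 and 22.4 CPM, lay around those of IT_A_1 and IT_A_3. With the block 4 were higher and 8 lower, against the pooled sum 0 and 5, without the IT_A_2 sum of animal 1 the counts were 2 and 5, and without that of animal 2 they were 1 and 4, with RASGRF2 among the calls lost.

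Channel and signalling lists held members in both directions. The share that passed was 11.8% for potassium channels, 26.5% for the other cation channels and 24.1% for calcium and cyclic nucleotide signalling. It was 23.3% for vesicle release and 15.4% for activity-regulated genes, beside 9.37% of genes with a symbol at 20 CPM or more. Of 51 potassium channel genes 1 was higher and 5 lower, among them KCNIP2, an auxiliary subunit of A-type channels, at 84.5 and 71.1 CPM against 103 to 175 CPM (-0.82 ± 0.11). Of 34 sodium, calcium and other cation channel genes 5 were higher and 4 lower, the largest being the T-type channel CACNA1H (-1.74), at 3.45 and 3.77 CPM in IT_A_2 and below that in IT_A_5. Of 54 genes of calcium and cyclic nucleotide signalling 4 were higher and 9 lower, with PRKCA, a protein kinase C, at 167 and 171 CPM against 261 to 696 CPM (-1.23 ± 0.10, adjusted p = 5.4e-05). The adenylyl cyclases ADCY1 (0.78) and ADCY8 (0.93) were higher. Of 43 genes of vesicle release 6 were higher and 4 lower, with CPLX2, a complexin, at 71.8 and 64.7 CPM against 95.3 to 200 CPM (-1.08 ± 0.09, adjusted p = 5.4e-05) and SYT9, a synaptotagmin, at 46.5 and 47.3 CPM against 14.4 to 29.8 CPM (1.09 ± 0.12). With the block the higher and lower counts were 6 and 9 for potassium channels, 7 and 7 for the other channels, 9 and 17 for calcium and cyclic nucleotide genes and 8 and 5 for vesicle release. Against the pooled sum they were 0 and 1, 0 and 2, 0 and 4, and 1 and 2. Without the IT_A_2 sum of animal 1 they were 0 and 1, 0 and 2, 2 and 8, and 1 and 1, and without that of animal 2 they were 0 and 1, 2 and 1, 3 and 4, and 3 and 1. Of 26 activity-regulated genes 2 were higher and 2 lower, NR4A3, a nuclear receptor induced by activity, being the highest at 26.4 CPM in both animals against 5.48 to 14.4 CPM (1.37 ± 0.17). With the block the activity-regulated counts were 5 and 3, without the IT_A_2 sum of either animal 1 and 0, and against the pooled sum 1 and 1.

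Against the other IT subclasses, 1551 of 17673 genes differed between IT_A_2 and IT_B (8.78%, with the block 3034), 1679 between IT_A_2 and IT_C (9.5%, with the block 3674) and 2235 between IT_A_2 and IT_D (12.6%, with the block 3239). Higher in IT_A_2 were 697 genes against IT_B (3.94%), 904 against IT_C (5.12%) and 1233 against IT_D (6.98%), and lower were 854 (4.83%), 775 (4.39%) and 1002 (5.67%). Of the 5 IT_A types, IT_A_2 had the fewest genes against IT_B and against IT_C. The other types had 1846 to 3231 genes against IT_B and 2623 to 3864 against IT_C. Against IT_D it did not have the fewest: IT_A_1 had 1576 and IT_A_4 2046, and IT_A_3 and IT_A_5 had 3176 and 3271. With nuclei thinned to 3000 UMIs the counts of IT_A_2 were 1145 and 1266, where the others ran from 1339 to 2271 and from 1844 to 2728. With equal nuclei, 58 per group in animal 1 and 315 in animal 2, they were 757 and 717, where the others ran from 855 to 1590 and from 926 to 1756. The comparison of the types was added after the data were seen, the counts share the IT_B and IT_C sums, and no test compares them.

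**Figure D5:**
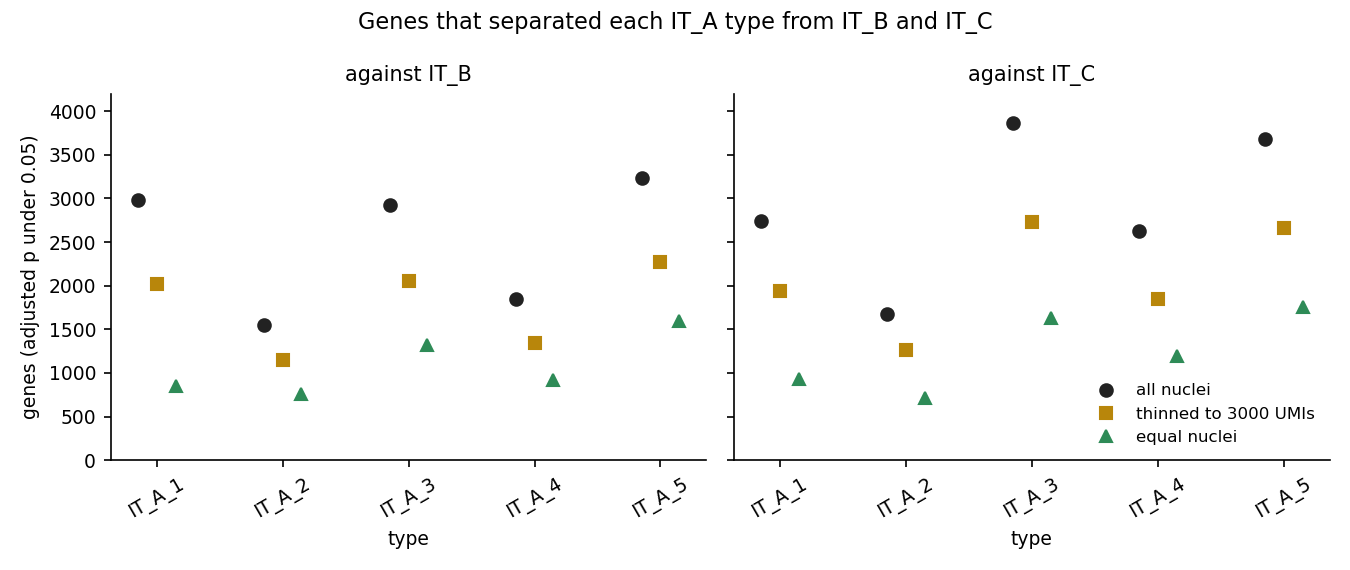
Genes with an edgeR adjusted p under 0.05 between each IT_A type and IT_B (left) or IT_C (right), with all nuclei, with nuclei thinned to 3000 UMIs and with equal nuclei per group. IT_A_2 has the lowest count in each setting, 1551, 1145 and 757 against IT_B and 1679, 1266 and 717 against IT_C.

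The 12 genes with the largest upward differences from the other IT_A types went both ways when IT_C or IT_B was set beside IT_A_2 itself. In IT_C 7 of them were above IT_A_2 and 5 below it in both animals, and in IT_B 5 were above and 6 below. Set beside the other IT_A types, 8 of the 12 in IT_C and 10 in IT_B lay above all of them in both animals. In the other direction, 0 in IT_C and 1 in IT_B lay below all of them. ATP10A was at 571 and 592 CPM in IT_C, COL5A2 at 132 and 127, GABRA5 at 429 and 356, PAMR1 at 270 and 253 and RORB at 844 and 772 CPM, all higher than in IT_A_2. The fold changes of IT_A_2 against IT_C ran from -1.06 ± 0.31 for ATP10A (edgeR adjusted p = 0.044) to -2.09 ± 0.33 for RORB (adjusted p = 0.00082). Against IT_B, RORB differed by -3.05 ± 0.34, with 1344 and 1593 CPM there. Of the 12 genes with the largest downward differences, 9 were below IT_A_2 and 1 above it in both animals in IT_C. In IT_B 6 were below it and 2 above. Below all other IT_A types in both animals were 11 of these genes in IT_C and 10 in IT_B, and 0 lay above all of them. These comparisons share the sums of the IT_A types, and the values are given side by side.

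RXRG was among the genes lower in both subclasses than in IT_A_2, with TEX47, MDFIC2 and GASK1B. It was at 3.51 and 2.31 CPM in IT_B and at 33.0 and 33.2 CPM in IT_C, and IT_A_2 was higher than both, by 4.84 ± 0.28 (edgeR adjusted p = 1.7e-07) and 1.43 ± 0.22 (adjusted p = 0.00062). It led the genes higher than in IT_B, with TRPC6, a cation channel, at 31.9 and 42.4 CPM against 2.13 and 1.41 CPM (4.27 ± 0.65), and SYT17, a synaptotagmin relative, at 41.7 and 57.02 CPM against 2.13 and 3.46 CPM (4.03 ± 0.30). Neither TRPC6 nor SYT17 passed the test against the mean of the other IT_A types (adjusted p = 0.496 and 0.887). Lower than in IT_B were PDE3A, a phosphodiesterase, at 0.690 and 1.26 CPM against 72.9 and 45.0 CPM (-6.04 ± 0.44), FRZB, a secreted Wnt antagonist, at 1.21 and 1.37 CPM against 56.3 and 59.7 CPM (-5.59 ± 0.29), and PLD5 at 17.5 and 14.9 CPM against 366 and 461 CPM (-4.78 ± 0.34).

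CUX2 separated IT_A_2 from IT_C. It was at 22.2 and 41.6 CPM in IT_C, 3.26 ± 0.34 below IT_A_2 on the log2 scale (edgeR adjusted p = 2.6e-05), and at 343 and 531 CPM in IT_B. GUCY1A1, a subunit of the nitric oxide receptor, was at 134 and 89.9 CPM in IT_A_2 and 14.4 and 9.18 CPM in IT_C (3.24 ± 0.32), and TRPC6 was higher than in IT_C as well (3.27 ± 0.56). Lower than in IT_C were IL1RAPL2, a synaptic adhesion gene, at 0.173 and 0.343 CPM against 28.4 and 34.4 CPM (-6.92 ± 0.48), LYN, a Src-family kinase, at 1.38 and 1.49 CPM against 37.8 and 33.3 CPM (-4.63 ± 0.29), and NIBAN1 at 1.64 and 1.83 CPM against 33.4 and 31.5 CPM (-4.23 ± 0.40). These last 3 were low in the other IT_A types as well, at most 8.96 CPM.

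Within IT_A_2, 6284 genes were at 20 CPM or more in either animal. The libraries of animal 1 and those of animal 2 did not overlap in 3602 of them (57.3%), and 59 of these differed by at least 2-fold (0.939%), 18 higher in animal 2 and 41 higher in animal 1. Between the libraries of 1 animal the number of genes with a 2-fold difference was 1 in animal 1 and 0 in animal 2. NOL11, a nucleolar protein gene, was the most different, at 34.8 and 30.5 CPM in the libraries of animal 1 and 177 and 187 CPM in those of animal 2. It was higher in animal 2 in all 7 other IT types and subclasses as well, by at least 2.01-fold. KLHL1, an actin-organising protein gene, was at 53.0 and 39.0 CPM in animal 1 and 9.09 and 7.66 CPM in animal 2, and FERMT1, an integrin-binding protein gene, at 34.4 and 36.1 against 6.94 and 9.85 CPM.

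NECAB1, a calcium-binding protein gene, was at 4.89 and 10.2 CPM in animal 1 and 25.3 and 21.2 CPM in animal 2, with 2.59 to 15.7 CPM in the other IT_A types of either animal. It was the 1 gene with a 2-fold difference between the libraries of animal 1. NAALAD2, LRTM1 and ANGPT1 were 2.60 to 2.88 times higher in animal 2, and BHLHE41, COL4A2 and BRINP3 were 2.65 to 2.76 times higher in animal 1. With 1 sum per animal these ratios have no test.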

How the data were processed

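Reads were aligned by the authors to ASM229v1 with Cell Ranger, counting introns, on Ensembl gene models with extended 3′ ends. The deposited matrices hold raw UMI count values for every gene in every nucleus. Their processing notes name version 6.1.1 and the matrix headers 7.1.0. The deposited metadata held class, subclass and type labels and a Scrublet doublet score, a fraction that the authors computed for each nucleus. Doublet calls stayed in (1.01% to 4.77% of IT_A_2 per library) and were removed in an alternative. In animals 1 and 2 they made up 1.08% and 4.34% of IT_A_2 and 3.09% and 4.52% of IT_A_4. They made up 0.510% and 1.22% of IT_A_1, 0.774% and 0.810% of IT_A_3, and 0.802% and 0.621% of IT_A_5. The median doublet score was highest in IT_A_2 of the IT_A types, at 0.0732 and 0.0828. The correlations and the comparisons with IT_B, IT_C and IT_D were not rerun without doublets. Of 30800 genes, 11590 (37.6%) had a symbol.

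Counts were summed per animal and type. The 10 sums of the IT_A types entered 1 edgeR fit, and those with IT_B, IT_C and IT_D a further one. Both used filterByExpr, TMM factors and quasi-likelihood tests, with p-values adjusted by Benjamini and Hochberg's method. Similarity used values log-normalised to 10000 UMIs. Labels were transferred by a vote of 15 neighbours over 30 components, from no more than 500 nuclei of each type. Same-animal sums deviated together (correlations of 0.199 to 0.435, median 0.341, over 17001 genes), so the animal pairs them. Intervals are exact Clopper-Pearson and cover counting error only. On simulated counts for IT_A_2 against the other IT_A types, 16501 genes, edgeR recovered 72 of 100 genes changed 2-fold and 91 of 100 changed 4-fold, with 7 false calls. The simulation gave all genes the same dispersion, made the other types alike and held no animal effect. These figures therefore need not hold for the real fit. Sums were tested in edgeR 4.0.16 and DESeq2 1.42.0 under R 4.3.3. Other steps ran in Python 3.11.15 (scikit-learn 1.9.0, scipy 1.17.1, pandas 2.3.3, numpy 2.4.6), and plots in matplotlib 3.10.9.

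IT_A_2, the gene lists and the tests were chosen with earlier results of these data known. Named genes were the 12 largest fold changes per direction with an adjusted p under 0.05, a symbol, 20 CPM in the higher side and 1 direction in both animals, the 6 extreme genes of all types with the largest smallest gap, 5 per direction against the nearest type, 3 against IT_B and IT_C, up to 5 list members with the lowest p, the 5 largest ratios between animals, CUX2 and the cell markers. Other list members that passed are counted, and only some of them named.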

Additional observations from a re-analysis of the deposited data

How the results depend on the processing

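Against the mean of the other IT_A types, the 1267 genes became 1268 with RLE normalization, 1120 with DESeq2, 1046 with equal nuclei and 1004 with nuclei thinned to 3000 UMIs. They became 1250 without doublets, 1312 with labels assigned from other genes and 1180 without IT_A_1, the last added after the data were seen. The labels from other genes came from a vote of neighbours that carried the deposited labels. That setting therefore cannot free the tests from labels made on the same counts. The count was 2234 with no low-count filter and 2920 with the replicate block, which held all 1267. It was 353 against the pooled sum of the other types, where the share that was higher went from 64.7% to 46.7%. The pooled fit also held fewer sums. Without the IT_A_2 sum of 1 animal, also added after the data were seen, it was 499 to 526.

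Against single types the replicate block gave 5617 genes for IT_A_1, 2074 for IT_A_3, 3129 for IT_A_4, 2733 for IT_A_5, 3034 for IT_B and 3674 for IT_C. Equal nuclei gave 2038 for IT_A_1, 757 for IT_B, 717 for IT_C and 1439 for IT_D, and thinning gave 1411 for IT_D. Without 1 IT_A_2 sum the counts were 1411 to 1465 for IT_A_1, 434 to 445 for IT_A_3, 837 to 905 for IT_A_4, 735 to 793 for IT_A_5, 781 to 1039 for IT_B, 873 to 934 for IT_C and 1320 to 1481 for IT_D. The lone sum was taken to vary like the other types, and fewer sums entered each fit.

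The share of IT_A_2 was 32.3% without IT_A_1 nuclei, the Spearman correlation with IT_A_3 was 0.909 over 1000 genes and 0.930 with thinned nuclei, and label transfer reached 79.7% with 10 components and 75.2% with thinned nuclei. At 50 CPM, 27 genes differed 2-fold between the animals. Over 194 named gene and comparison pairs that were called, 373 of 2177 tested values under the alternatives lost the call, most of them against the pooled sum or without an IT_A_2 sum, and 0 reversed. CUX2, not called, gained the call in 2 of 12. The cause of these shifts was not tested. The 2 animals limit the precision of every fold change, and animal, age, experimenter and suspension cannot be told apart.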
